A study of Mus musculus with 4 samples.

Results

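The variable (V) segments of the immunoglobulin light chain loci were examined in whole mouse lung. They were taken as every gene whose symbol begins with Igkv (kappa) or Iglv (lambda) followed by a family number and which had a probe set of its own. This gave 86 genes of the 30145 genes measured, and the choice did not use their values. All 86 were kappa genes, of 20 V families. The 3 lambda V genes shared 1 probe set with lambda joining and constant genes and are described apart.

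The arrays came from 2 groups of adult, age-matched mice, 2 arrays each. The wild-type (WT) group has the strain label C57/BL6 and the sickle cell disease group the strain label SCD Tg. The labels do not say which transgene, promoter or background strain SCD Tg stands for, so genotype and background strain cannot be told apart. The study's text speaks of 2 lungs per group, and p-values measure the spread between these samples. Sickle cell disease comes from a mutant beta globin that deforms red blood cells.

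An antibody consists of heavy chains and light chains, and a light chain is of the kappa or the lambda type. In each developing B cell the RAG recombinase joins 1 V segment to a joining (J) segment, and splicing links them to the constant region (Igkc for kappa). V segments are transcribed weakly before rearrangement. Once rearranged and close to the enhancers they are transcribed strongly, above all in plasma cells, which secrete antibody. In a kappa symbol the first number is the V family, a group of similar sequences, and the second the position, counted from the J end of the locus. In the RefSeq gene table of GRCm38.p6, the measured genes run from high to low position numbers (Spearman's rho of -0.999972 over 86 genes). That table classes 79 of the genes as V segments and 7 as V segment pseudogenes, and lists 105 V segments and 60 pseudogenes in all at the kappa and lambda loci.

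Kappa V genes were higher in SCD lung. Of 86, 28 rose, 0 fell and 58 did not pass (limma, Benjamini-Hochberg adjusted p under 0.05 over all 30145 genes), where 3.22% of all genes were called, 2.56% higher and 0.66% lower. A rise of at least 1 on the log2 scale was called in 26 of the 86 and in 1.45% of all genes. No kappa V gene with a lower SCD mean had an unadjusted p under 0.05 in limma, whereas 53 with a higher SCD mean did. Of all genes, 16.8% had such a p in either direction. The median difference, SCD minus WT on the log2 scale, was 0.89 over the kappa V genes and 0.0034 over all genes. In 65 genes both SCD arrays lay above both WT arrays, in 5 both lay below, and in 16 the groups overlapped. Over all genes the first of these orders held in 25.5% and the second in 22.3%. Per array, the median over the 86 genes was 6.01 and 5.98 in WT and 6.93 and 6.83 in SCD lung. Whole lung does not separate more antibody-producing cells from more RNA per cell.

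These calls needed both SCD arrays. When either SCD array was left out, limma called 0 genes of any kind. Without SCD replicate 1 the median difference of the kappa V genes was 0.84, and without SCD replicate 2 it was also 0.84. Without WT replicate 1 it was 0.89, and without WT replicate 2 it was 0.84. The median over all genes lay between 0.0006 and 0.013 in these settings. The positive control probe sets were 0.20 higher in SCD than in WT arrays. With that shift taken off the SCD values, the median of all genes moved to -0.19 and that of the kappa V genes to 0.69. Limma then called 24 kappa V genes higher, and 1.75% of all genes. In 64 kappa V genes, in place of 73, the difference was above 0. At an unadjusted p under 0.05 in limma, 45 kappa V genes were higher and 4 lower. Of all calls, 48.0% were then higher, against 79.5% before.

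**Figure D1:**
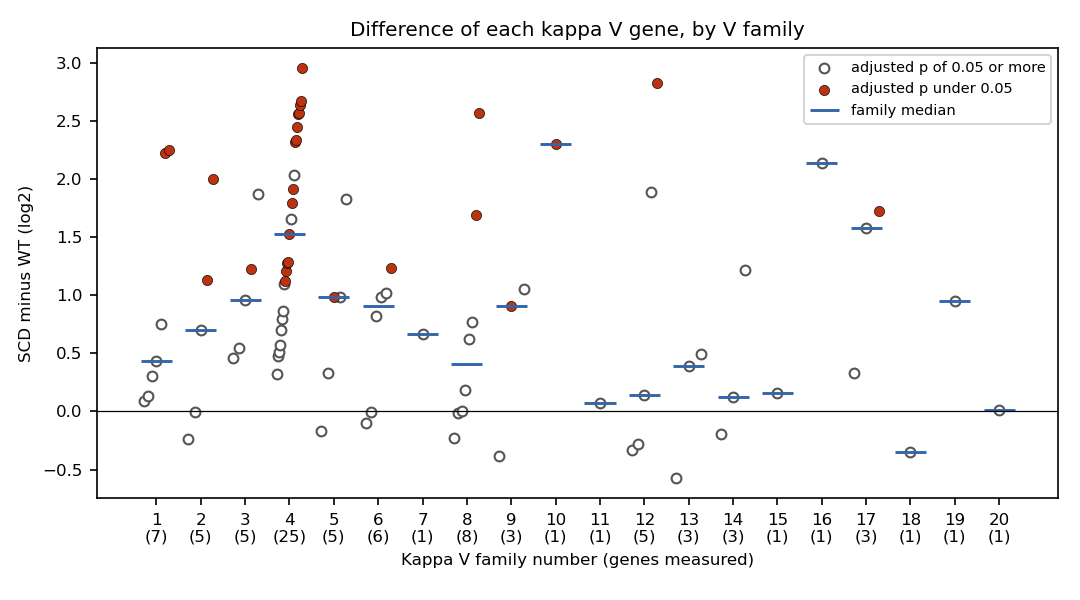
Difference between SCD and WT (log2) of each of 86 kappa V genes, by V family number, with the number of genes measured in each family in brackets. Filled points passed an adjusted p of 0.05 in limma, open points did not, and blue lines are family medians; all 25 genes of family 4 lie above 0 and 15 of them passed.

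Family 4 was the family with the most measured genes. All 25 of its genes had a higher mean in SCD lung, 15 rose, and in 24 both SCD arrays lay above both WT arrays. Its median difference was 1.53, with a range from 0.32 to 2.95. Of the other 61 genes 13 rose, 41 had both SCD arrays above both WT arrays, and the median difference was 0.62. Whether the families differ was not tested, since genes of a family resemble each other and are not replicates. Probe sequences were not used here, so that hybridisation of 1 transcript to probe sets of related segments was not tested either.

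Igkv4-55 showed the largest difference of the kappa V genes. It had 6.01 and 6.72 in WT and 9.37 and 9.25 in SCD lung, a rise of 2.95 ± 0.25 (limma SE; 7.74-fold; adjusted p = 0.00784). The SCD arrays lay close together and well apart from the WT arrays. Igkv4-61 had 6.78 and 7.22 in WT and 9.71 and 9.64 in SCD lung, a rise of 2.67 ± 0.17 (adjusted p = 0.00616). Igkv4-80 had 6.56 and 6.83 against 9.08 and 9.59, a rise of 2.64 ± 0.21 (adjusted p = 0.0074). For both genes the distance between the groups was several times that within them.

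Igkv4-54 spread most between the WT arrays among the genes that rose. It had 7.42 and 8.44 in WT and 10.41 and 10.58 in SCD lung, a rise of 2.57 ± 0.33 (adjusted p = 0.0269). Igkv4-71 rose by 2.56 ± 0.21, from 7.56 and 8.13 to 10.53 and 10.28. Igkv4-62 rose by 2.44 ± 0.20, from 7.15 and 7.67 to 9.77 and 9.95. In each of these 3 genes WT replicate 1 was the lowest array. Igkv4-59 varied little within the groups, with 8.35 and 8.50 in WT and 10.78 and 10.74 in SCD lung, a rise of 2.33 ± 0.10 (5.04-fold; adjusted p = 0.00286). Igkv4-57 rose by 2.32 ± 0.18, from 6.78 and 7.23 to 9.23 and 9.41.

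The other family 4 genes that rose did so by 1.13 to 1.91. Igkv4-91 rose by 1.91 ± 0.16, from 4.55 and 4.19 to 6.34 and 6.23, so that all 4 values were dim. Igkv4-70 rose by 1.80 ± 0.13, from 7.14 and 7.26 to 9.14 and 8.86. Igkv4-63 was already bright in WT lung (8.17 and 8.56) and rose by 1.53 ± 0.18 to 9.75 and 10.04. Smaller rises were those of Igkv4-50 (1.29 ± 0.14), Igkv4-79 (1.28 ± 0.18), Igkv4-57-1 (1.21 ± 0.18) and Igkv4-86 (1.13 ± 0.12). Of these, Igkv4-57-1 missed the threshold without the intensity trend (adjusted p = 0.0557 in limma).

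Among the 10 family 4 genes that did not pass, differences ran from 0.32 (Igkv4-51) to 2.04 (Igkv4-68). Igkv4-68 had 5.77 and 4.46 in WT and 7.12 and 7.18 in SCD lung (2.04 ± 0.42; adjusted p = 0.0888 in limma). Its WT arrays differed by more than 1 while its SCD arrays nearly coincided. Igkv4-53 was the family 4 gene whose groups overlapped, with 4.76 and 5.92 in WT and 6.19 and 5.88 in SCD lung. Both genes and Igkv4-51 were named after their values were seen.

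**Figure D2:**
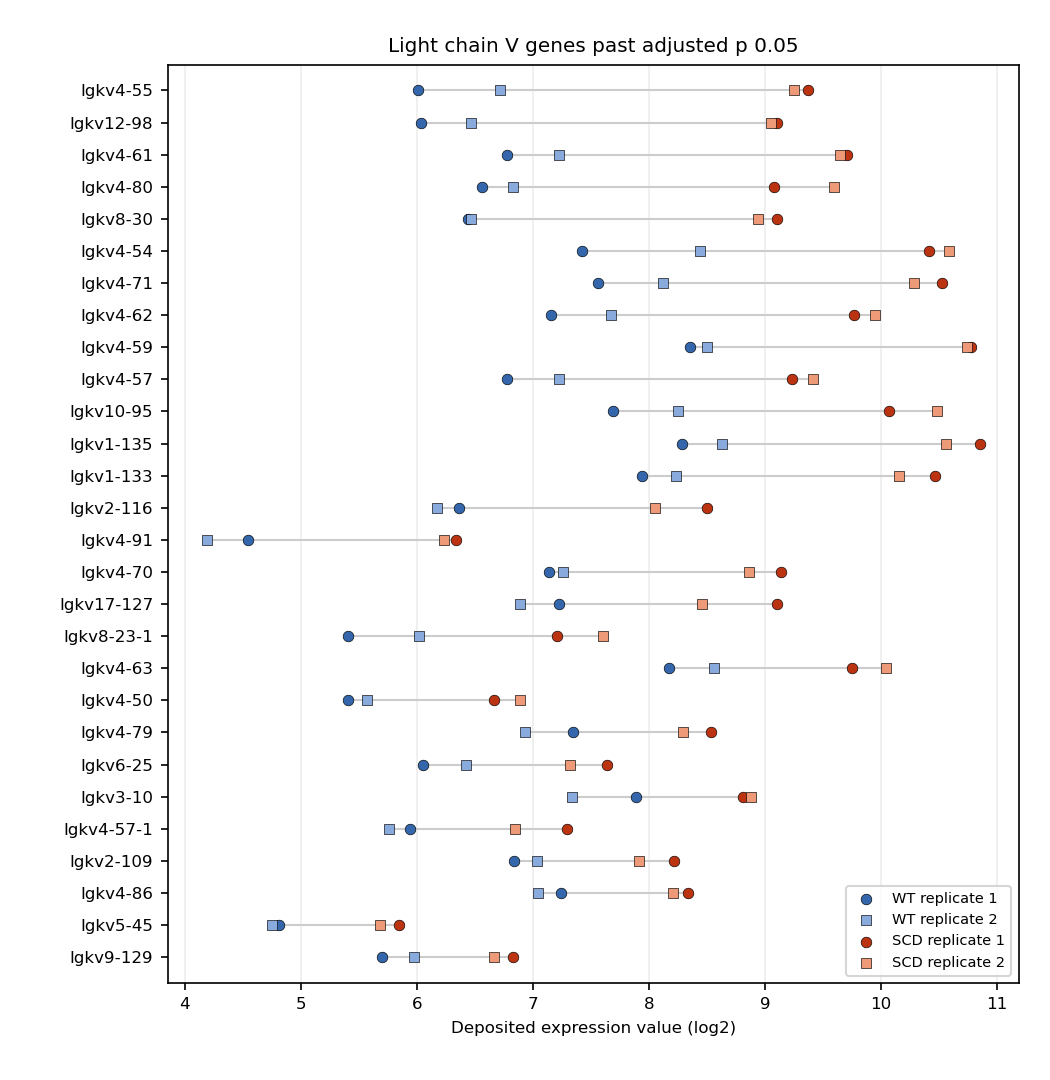
Deposited expression value (log2) on each array for the 28 kappa V genes past an adjusted p of 0.05 in limma, ordered by their difference. Blue symbols are the 2 WT arrays and red symbols the 2 SCD arrays; in every gene shown both SCD arrays lie above both WT arrays, and WT replicate 1 lies below WT replicate 2 in 20 of the 28.

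Outside family 4, 13 genes of 10 families rose. Igkv12-98 rose by 2.83 ± 0.17 (7.09-fold; adjusted p = 0.00549), from 6.04 and 6.46 in WT to 9.11 and 9.05 in SCD lung. Igkv8-30 rose by 2.57 ± 0.11 (adjusted p = 0.00286), from 6.44 and 6.46 to 9.10 and 8.94. Both had nearly the same value on the replicate arrays of at least 1 group. Igkv10-95, the single measured gene of family 10, rose by 2.31 ± 0.24, from 7.69 and 8.25 to 10.07 and 10.48. The family 1 genes Igkv1-135 and Igkv1-133, close to the far end of the locus, rose by 2.25 ± 0.17 and 2.22 ± 0.16. Igkv1-135 had 8.28 and 8.63 in WT and 10.85 and 10.56 in SCD lung, and Igkv1-133 had 7.94 and 8.23 against 10.46 and 10.16. The 2 genes therefore had similar profiles over the 4 arrays. The other 5 genes of family 1 did not pass, with differences from 0.09 to 0.75.

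Of the 7 pseudogenes, Igkv2-116 rose and the other 6 did not pass. It had 6.36 and 6.18 in WT and 8.50 and 8.05 in SCD lung, a rise of 2.00 ± 0.18 (adjusted p = 0.00985). The median difference over the 7 pseudogenes was 0.31, with a range from -0.57 to 2.00, and that over the 79 V segments was 0.96. V segments rose in 27 of 79 cases.

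Smaller rises outside family 4 came from 7 more genes. Igkv17-127 rose by 1.72 ± 0.25, from 7.22 and 6.89 to 9.10 and 8.46. Igkv8-23-1 rose by 1.69 ± 0.25, from 5.40 and 6.02 to 7.21 and 7.60. Igkv6-25, Igkv3-10 and Igkv2-109 rose by 1.24 ± 0.18, 1.23 ± 0.20 and 1.13 ± 0.15. Igkv5-45 rose by 0.98 ± 0.12 and Igkv9-129 by 0.91 ± 0.14, the smallest rises past the threshold among the kappa V genes. Without the intensity trend, Igkv17-127 (adjusted p = 0.0526), Igkv8-23-1 (adjusted p = 0.0551), Igkv6-25 (adjusted p = 0.0551) and Igkv3-10 (adjusted p = 0.0677) missed the threshold in limma, as did Igkv9-129.

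Several genes had a large difference without passing, beside a wide spread. Igkv16-104, the single gene of family 16, had 7.72 and 6.34 in WT and 9.57 and 8.77 in SCD lung (2.14 ± 0.51; adjusted p = 0.12 in limma). Its WT arrays lay 1.38 apart, the widest gap among the kappa V genes. Igkv12-46 had 6.71 and 7.65 against 8.95 and 9.20 (1.89 ± 0.32; adjusted p = 0.0538), and Igkv5-43 had 4.97 and 5.89 against 7.22 and 7.29 (1.83 ± 0.31; adjusted p = 0.0537). Igkv14-111 (1.22 ± 0.22), Igkv9-124 (1.05 ± 0.38), Igkv19-93 (0.95 ± 0.19) and Igkv6-14 (0.83 ± 0.14) did not pass, and in each of them both SCD arrays lay above both WT arrays.

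Among the genes named as the brightest of their family, others had smaller differences. Igkv15-103, the single gene of family 15, had 9.57 and 9.09 in WT and 9.32 and 9.64 in SCD lung, a difference of 0.16 ± 0.20, and its groups overlapped. All 4 values lay well above the medians of the negative control probe sets given below. Igkv11-125 (0.07 ± 0.13) and Igkv20-101-2 (0.01 ± 0.16), each alone in its family, were dim on all arrays. Igkv13-85 (0.39 ± 0.18), with both SCD arrays above both WT arrays, and Igkv7-33 (0.67 ± 0.41) did not pass, which does not show that they did not differ.

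In 13 genes the SCD mean was lower, and none of them passed in limma, with 0 at an unadjusted p under 0.05. The lowest difference was that of the pseudogene Igkv13-87, with 4.80 and 4.20 in WT and 3.76 and 4.10 in SCD lung (-0.57 ± 0.25; adjusted p = 0.344). Igkv9-123 had 6.68 and 6.65 against 6.62 and 5.94 (-0.38 ± 0.24), and Igkv18-36 had 5.34 and 5.60 against 5.17 and 5.07 (-0.35 ± 0.14). Igkv12-89 (-0.33 ± 0.42) and the pseudogene Igkv12-47 (-0.28 ± 0.16) were the next. The 5 measured genes of family 12 ranged from these values through Igkv12-38 (0.14) and Igkv12-46 (1.89) to Igkv12-98 (2.83).

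**Figure D3:**
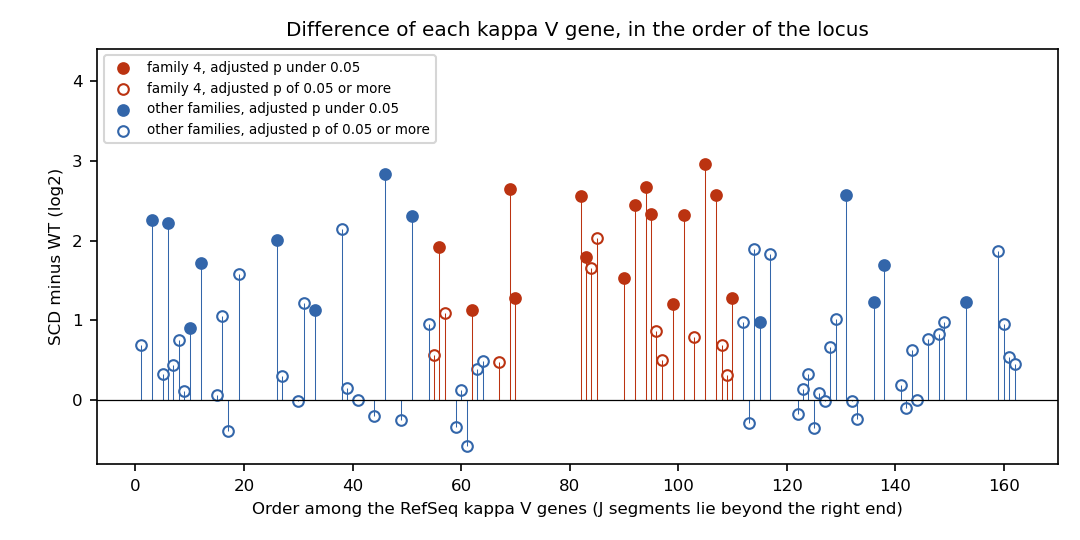
Difference between SCD and WT (log2) of 86 kappa V genes in the order in which RefSeq lists 162 kappa V genes, with the J segments beyond the right end. Red marks family 4, blue the other families, and filled points passed an adjusted p of 0.05 in limma; genes with large and small differences lie side by side along the whole order.

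Rises occurred along the whole locus. Across the 86 genes the difference had a Pearson's r of -0.04 and a Spearman's rho of -0.05 with the order, a description over genes that share arrays and sequence. Such a correlation sees only a steady trend along the locus. In stretches drawn after the values were seen, 15 of 30 genes rose at positions 50 to 92 (median difference 1.24), 4 of 22 at positions 1 to 36 (0.65), 1 of 8 at positions 37 to 49 (0.66) and 8 of 26 from position 93 on (0.83). Genes that rose lay next to genes that did not. Igkv4-61 and Igkv4-59 are followed in the RefSeq order by Igkv4-60 (0.87 ± 0.29) and Igkv4-58 (0.51 ± 0.11), neither of which passed. Igkv4-54 (2.57) is followed by Igkv4-53 (0.70 ± 0.39), which did not pass. Igkv12-47 (-0.28) is followed by Igkv12-46 (1.89), and neither of this pair passed. Family 4 occupies positions 50 to 92, where 5 genes of other families were also measured. Their differences ran from -0.57 to 0.49, and limma called 0 of the 5, with 0 at an unadjusted p under 0.05.

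Across the 86 genes the Pearson correlation of the difference with the WT mean was 0.43 (Spearman's rho of 0.44), a description over probe sets that share arrays. Antigenomic background probe sets had a median of 3.32 on the WT and 3.37 on the SCD arrays, and all genes one of 5.88 and 5.90. The median of the negative control probe sets was 6.48 on the WT and 6.29 on the SCD arrays. In 16799 of all 30145 genes both group means lay at or below these negative control medians. Whether genes at such a level were detected was not tested. In the 54 genes with a WT mean at or below the WT median of these controls, 11 rose and the median difference was 0.68. In the 32 genes with a WT mean above it, 17 rose and the median difference was 1.25. Igkv4-91 and Igkv5-45 rose although their SCD means also lay at or below the SCD median of the controls. Igkv4-55, Igkv12-98 and Igkv8-30 were among the 11.

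**Figure D4:**
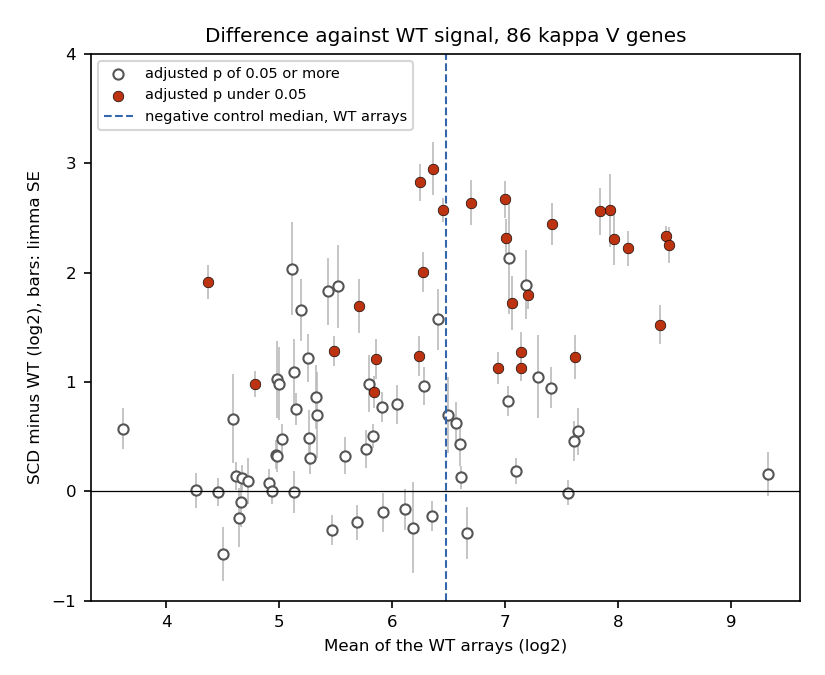
Difference between SCD and WT (log2) against the mean of the WT arrays (log2) for 86 kappa V genes, with limma standard errors as bars. The dashed line is the median of the negative control probe sets on the WT arrays (6.48); filled points passed an adjusted p of 0.05 in limma, and 17 of these 28 lie to its right.

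Replicate arrays lay further apart in kappa V genes than in genes at large. The median distance between the WT arrays was 0.32 for the kappa V genes and 0.16 for all genes, and between the SCD arrays 0.27 and 0.12. WT arrays differed by at least 1 in 6 of the 86 genes (6.98%), against 0.892% of all genes. The WT arrays also differed in a common direction among the genes with the largest differences. In all 13 genes with the largest differences, a number chosen after the values were seen, WT replicate 2 lay above WT replicate 1, and in 48 of all 86. Summed over the 11 plasma cell markers described below, the unlogged signal was 1955 in WT replicate 1 and 2060 in WT replicate 2. The part of this difference in the V gene values was not tested.

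**Figure D5:**
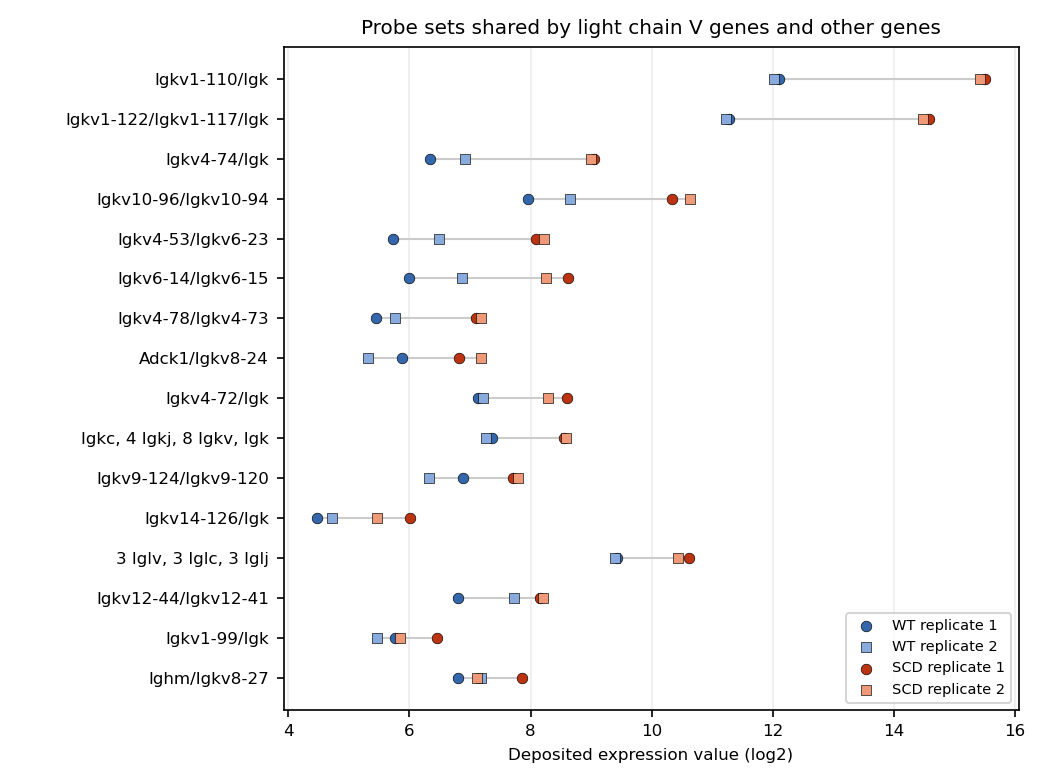
Deposited expression value (log2) on each array for 16 probe sets that light chain V genes share with each other or with other genes, ordered by their difference. Blue symbols are the WT arrays and red symbols the SCD arrays; SCD lies above WT without overlap in all of them except the set of Ighm and Igkv8-27.

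Another 31 light chain V genes, 4 of them also with a probe set of their own, were on 16 probe sets that carry several symbols. These were tested in a fit over all 65956 transcript clusters, where 1.47% were called, 0.914% higher in SCD lung and both SCD arrays lay above both WT arrays in 20.3%. The set of Igkv1-110 and the locus symbol Igk had 12.11 and 12.02 in WT and 15.50 and 15.41 in SCD lung, a rise of 3.39 ± 0.07 (10.5-fold; adjusted p = 0.00286, limma). The set of Igkv1-122, Igkv1-117 and Igk had 11.28 and 11.23 against 14.57 and 14.47, a rise of 3.26 ± 0.08 (9.61-fold; adjusted p = 0.00334). Both were larger than the difference of any kappa V gene with a probe set of its own, and their arrays agreed closely within each group. Kappa V sets rose in 7 of 15 cases, among them that of Igkv4-74 and Igk (2.39 ± 0.22) and that of Igkv10-96 and Igkv10-94 (2.19 ± 0.27). In 14 of the 15 both SCD arrays lay above both WT arrays.

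Of the 4 genes with both kinds of probe set, Igkv9-124 gave similar values on both and the others did not. Igkv6-14 differed by 0.83 ± 0.14 on its own set and by 2.02 ± 0.33 on the set shared with Igkv6-15. Igkv4-53 differed by 0.70 ± 0.39 on its own and by 2.05 ± 0.28 on the set shared with Igkv6-23. Igkv9-124 had 1.05 ± 0.38 on its own and 1.15 ± 0.22 with Igkv9-120. Igkv8-30 rose by 2.57 on its own set, and the set it shares with Igkc, which also carries 4 J segments and 7 other V genes with Igkv4-53 among them, rose by 1.25.

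Kappa and lambda could be compared only on shared probe sets that carry constant genes. The kappa set of Igkc had 7.37 and 7.26 in WT and 8.55 and 8.59 in SCD lung, a rise of 1.25 ± 0.13 (2.38-fold; adjusted p = 0.0311, limma). The lambda set, which carries Iglv1, Iglv2 and Iglv3 with 3 constant and 3 joining genes, had 9.42 and 9.40 against 10.62 and 10.44, a rise of 1.12 ± 0.12 (2.17-fold; adjusted p = 0.0340). On each array the kappa set minus the lambda set was -2.05 and -2.14 in WT and -2.07 and -1.85 in SCD lung. The shift of 0.13 between the groups had an exact two-sided permutation p of 0.667 over 6 splits of the arrays, where the smallest possible p is 0.333. Both sets thus rose in SCD lung. A permutation test of this size cannot pass the threshold, so it says nothing about whether the rises differ. The sets of Igkv1-110 and of Igkv1-122 with Igkv1-117 were far brighter than the Igkc set in WT lung (means of 12.07 and 11.26). They also rose by more, by 3.39 and 3.26. What part of the kappa RNA the Igkc set measures was not tested, and its distance from the lambda set is not a ratio of kappa to lambda. The joining segment Igkj3, the one J gene with a probe set of its own, had 8.17 and 8.95 in WT and 7.85 and 7.88 in SCD lung (-0.69 ± 0.26). It did not pass, and lay below WT on both SCD arrays. Igkj1, Igkj2, Igkj4 and Igkj5 were measured only on the set of Igkc, which rose, so that Igkj3 does not stand for the J segments.

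Genes of antibody secretion and of B cells were set beside the V genes, in a fit of 30701 genes with symbols updated through RefSeq, where 3.09% of genes were called, 2.46% higher and 0.635% lower, and 16.7% had an unadjusted p under 0.05. Of 22 plasma cell and secretion genes 4 rose and 18 did not pass. In limma 10 had an unadjusted p under 0.05, Cd93 among them with a lower mean in SCD lung. In 15 both SCD arrays lay above both WT arrays and in 4 below, against 25.3% and 22.5% of all genes. Jchain, which links secreted IgM and IgA, had 6.57 and 6.74 in WT and 10.01 and 9.90 in SCD lung, a rise of 3.30 ± 0.11. The endoplasmic reticulum chaperone gene Creld2 rose by 1.36 ± 0.15, Pigr, the epithelial transporter of these antibodies, by 0.91 ± 0.13 and Xbp1, a transcription factor of secretory cells, by 0.71 ± 0.08. The call of Pigr was lost without the intensity trend (adjusted p = 0.0582 in limma), with the positive control shift removed (0.0623), with every probe set tested on its own (0.086) and without WT replicate 1 (0.0952). That of Xbp1 was lost with every probe set on its own (0.0643), without WT replicate 1 (0.0626) and without WT replicate 2 (0.0565). Of 11 plasma cell markers Jchain and Xbp1 rose. Their summed unlogged signal was 1955 and 2060 in WT and 3588 and 3527 in SCD lung, with a median difference of 0.22. Without Jchain and Xbp1 the other 9 summed to 1009 and 1120 in WT and 1176 and 1195 in SCD lung. These 9 were set apart because they did not pass in these data, so that a small change in their sum follows from the choice. Mzb1, Tnfrsf17 and Derl3 lay below the negative control medians in both groups, as most genes did. Mzb1, a chaperone of plasma cells, did not pass (0.33 ± 0.14).

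B cell genes did not follow the V genes. Of 19 measured, 0 passed in limma, with 5 at an unadjusted p under 0.05. In SCD lung 13 had a lower mean, and the median difference was -0.08. In 9 both SCD arrays lay below both WT arrays and in 1 above, against 22.5% and 25.3% of all genes. The antigen receptor component Cd79a (0.14 ± 0.10) and the surface protein Ms4a1, CD20 (-0.01 ± 0.12), did not pass. Fcer2a, the low-affinity IgE receptor, was lower on both SCD arrays (-0.75 ± 0.12; adjusted p = 0.0525) and did not pass. Over 9 B cell markers the summed unlogged signal was 1978 and 2118 in WT and 1777 and 1732 in SCD lung, with 3 of the 9 at an unadjusted p under 0.05 in limma. Blk, like most genes, lay below the negative control medians in both groups. The 86 kappa V genes summed to 8428 and 8760 in WT and 25660 and 24680 in SCD lung, also unlogged. The part of cell composition in the V gene values was not tested.

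Of 4 heavy chain constant genes Ighg2b and Ighm rose, by 3.01 ± 0.16 and 0.78 ± 0.08, while Ighg1 (0.40 ± 0.11) and Ighe (0.06 ± 0.13) did not pass. The call of Ighm was lost without WT replicate 1 (adjusted p = 0.0537 in limma). Among 12 genes of the surrogate light chain and V(D)J recombination limma called 0, with 1 at an unadjusted p under 0.05. Vpreb3 had 6.30 and 7.65 in WT and 8.25 and 8.51 in SCD lung (1.41 ± 0.44; adjusted p = 0.21). Rag2 (-0.10 ± 0.24) and Igll1 (0.13 ± 0.24) were dim on all arrays. Of 10 germinal centre genes and of 8 transcription factor genes of the kappa promoter and enhancers limma called 0. Its unadjusted p was under 0.05 in 4 and 1 of them. Over all genes of the fit with updated symbols, 3.09% were called and 16.7% had such a p. The germinal centre genes were Mybl1 (0.52 ± 0.11), Mki67 (0.44 ± 0.10) and Bcl6 (0.46 ± 0.13), higher in SCD lung, and Gcsam (-0.51 ± 0.15), lower. The factor gene was Rela (0.41 ± 0.11). Of these 8 factor genes 6 had a higher and 2 a lower mean in SCD lung, with a median difference of 0.19. The B cell coactivator Pou2af1, which binds octamer factors at V promoters, was among the 2 lower ones (-0.23 ± 0.10).

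Other V gene families were counted in the same way. Of 113 heavy chain V genes 29 rose and 0 fell, with a median difference of 0.66, and in 71 both SCD arrays lay above both WT arrays and in 6 below. Of 111 T cell receptor V genes 1 rose and 0 fell, with a median difference of -0.10. In 16 of these both SCD arrays lay above both WT arrays, and in 31 below. Over all 30145 genes 2.56% were called higher and 0.66% lower. The 2 orders of the arrays held in 25.5% (above) and 22.3% (below) of all genes. T cell markers rose in 2 of 7 cases, Cd3d (1.18 ± 0.14) and Cd3e (0.77 ± 0.11), in the fit where 2.46% of genes were called higher. Both calls were lost with every probe set tested on its own (adjusted p = 0.0561 and 0.0887 in limma). In 4 of the 7 the groups overlapped, and the median difference was 0.13. The summed unlogged signal was 1123 and 1186 in WT and 1570 and 1564 in SCD lung.

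The whole lung markers, epithelial and endothelial genes, were bright in both groups: all 6 had values between 11.93 and 19.93, and 1 of the 6 passed. That was the endothelial gene Cdh5 (-0.47 ± 0.08; adjusted p = 0.0491 in limma), whose call was lost without the intensity trend (adjusted p = 0.139), with equal array medians (0.103) and in other settings. The endothelial gene Pecam1 had a difference of 0.24 ± 0.10. Sftpc and Scgb1a1 held one identical value on all 4 arrays, as 192 transcript clusters did, but none of the kappa V genes.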

How the data were processed

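The authors' deposited log2 values were used as given. The tools named, per the submitters' processing notes, are RMA, Partek and Affymetrix Expression Console, with versions and roles not given in the sources used here; the log2 scale was read from the values. With 4 arrays, precision is limited by their number. Of 72688 probe sets, 6732 were controls, and 30604 carried 1 gene symbol in the platform annotation and 2146 several. Where a gene had several probe sets, the one brightest on average stood for it, with no filter on dim genes.

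The groups were compared in R 4.3.3 with limma 3.58.1 (lmFit, eBayes with an intensity trend, group as the only term), two-sided, with Benjamini-Hochberg adjustment over all 30145 genes and a threshold of 0.05. Standard errors are limma's moderated ones, with n = 2 arrays per group. The procedure was tested on simulated data. Secretion and marker genes were read from the fit with symbols updated through the RefSeq table of GRCm38.p6, since several, Jchain among them, carry old and new symbols in the annotation.

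Named V genes were those past the threshold, the 10 with the highest mean level, the brightest of each family, and the 5 largest and 5 smallest differences; also the lambda V genes, up to 4 genes of each gene list with the smallest p, and Igkc, Jchain, Ighm, Cd79a, Ms4a1 and Mzb1; a further gene of the rule is not reported here. Others were named after their values were seen. Members and lists were chosen with earlier results of these data known. Positions come from symbols and the RefSeq order only.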

Additional observations from a re-analysis of the deposited data

How the results depend on the processing

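The V genes called higher stayed within 1.5 times the 28 in all settings that kept 4 arrays except 1: with every probe set tested on its own, 18 were called, the number of features tested being larger. Of the 28, 17 were called in each of the 12 settings with all arrays, 11 of them of family 4; no V gene was called lower in any. The replicate number as a block gave 37 V genes, 27 of them among the 28, and 998 genes in all; Igkv9-129 (adjusted p = 0.0611 in limma) was the V gene lost, and Pigr (0.0502) was lost too. The deviations of same-numbered arrays did not correlate over all genes (r of -0.00096). With 2 arrays per group this rests on 1 gap in each group, so it does not tell whether same-numbered arrays share a batch. No intensity trend gave 22 V genes. The median difference of 0.89 became 0.98 and 1.24 with the dimmest 25% and 50% of genes left out, which tests fewer and brighter V genes (77 and 55), and 0.69 with the shift of the positive controls removed. Leaving out 1 array gave 0 to 769 genes in all (509 without WT replicate 1) and 0 to 24 V genes, with a median difference from 0.84 to 0.89; both counts of 0 came from leaving out either SCD array, where limma's unadjusted p was under 0.05 for 3302 and 3262 genes. There the lone array of a group is assumed to vary like the other group, with fewer residual degrees of freedom. Without a WT array, 17 of the 28 were called whichever was left out.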
